A study of Mus musculus with 4 samples.

Results

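Integrins and laminins are the receptors and the ligands of cell adhesion to basement membrane. An integrin is a surface dimer of an alpha and a beta chain that binds matrix proteins and links them to the actin cytoskeleton through adaptors such as talin. A laminin is a trimer of an alpha, a beta and a gamma chain, and laminins form the sheet of the basement membrane on which alveolar epithelium rests. In the lung, integrins made of Itgav with Itgb6 or Itgb8 are also known to release TGF-beta from its latent form.

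The genes described here are 17 integrin alpha chains, 8 integrin beta chains and 10 laminin chains, chosen by their symbols from a fixed list of gene names. All 35 were found among the 32285 genes of the count matrix. Together they are Itga1, Itga2, Itga2b, Itga3 to Itga11, Itgav, Itgae, Itgal, Itgam, Itgax, Itgb1 to Itgb8, Lama1 to Lama5, Lamb1 to Lamb3, Lamc1 and Lamc3. They are long genes, with a median span of 64.4 kb in GENCODE vM21 on GRCm38 against 12.3 kb over the 32158 genes of the matrix that this annotation holds.

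RNA was read in single cells of mouse alveolospheres, in which lung alveolar type 2 (AT2) epithelial cells sorted as LysoTracker-positive grew with PDGFRα-positive fibroblasts. Control cultures are labelled wildtype. In the other group the AT2 cells are labelled wildtype and YAP and TAZ, encoded by Yap1 and Wwtr1, were knocked down by a doxycycline-inducible system that is specific to the PDGFRα-positive cells. Doxycycline at 3 µg/ml was given to both groups from day 7, and all cultures were collected on day 14. Each group had 2 libraries that the labels call biological replicates. Whether the 2 came from different animals or cultures is not stated, and p-values therefore reflect only how much libraries varied, which may be technical.

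Control libraries 1 and 2 held 15000 and 13883 cells, and knockdown libraries 1 and 2 held 10545 and 6508 cells, with 44284602 to 71523447 UMIs (unique molecular identifiers, which count RNA molecules) each. Median depth was 3875.5 and 4142 UMIs a cell in controls and 4961 and 5946 in knockdowns, and median mitochondrial shares ran from 17.8 to 24.6%. Of 44852 cell barcodes, 1073 occurred in more than 1 library. Counts were summed per library over the authors' deposited cell classes. Fibroblast, smooth muscle, EMT-like and unknown mesenchymal classes form the fibroblast sums, with 36116 cells. AT2 cells (cluster 9), AT2-class clusters 14 and 32, cycling AT2 and transitional cells form the epithelial sums, with 7845 cells. Clusters 19 and 23 of the AT2 class were left out, because their fibroblast markers reached 62.8% and 55.8% of what fibroblasts held, against 8.13 to 10.6% in the other epithelial clusters. Cluster 14 is called AT1-like, since its summed AT1 markers were 2630 and 4070 CPM (UMIs of a gene scaled to the same total in every sum) in the 2 controls against 1330 and 1960 in cluster 9 and 545 and 693 in transitional cells. Its transitional markers, at 3720 and 5580 CPM, also lay above the 1590 and 1710 of cluster 9, and below the 5380 and 7880 of transitional cells. AT2 markers were still read in it, at 11100 and 18000 CPM in the controls. That is below the 73400 and 99500 of cluster 9 and above the 934 and 1070 of transitional cells.

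The targeted genes were compared first. Yap1 stood at 61.3 and 64.9 normalised CPM in the control fibroblast sums and at 40.9 and 36.4 in the knockdowns. Its log2 fold change was -0.71 ± 0.11 (SE; adjusted p = 0.00864, edgeR quasi-likelihood test). Without knockdown library 2 its adjusted p was 0.0559. Wwtr1 stood at 239 and 231 CPM in controls and 194 and 172 in knockdowns and did not pass (log2 -0.36 ± 0.13, adjusted p = 0.115, edgeR). In the epithelial sums Yap1 had a log2 fold change of -0.17 ± 0.16 (adjusted p = 0.697, edgeR). Wwtr1 read 313 and 271 CPM in control and 244 and 209 in knockdown epithelium, without overlap (log2 -0.37 ± 0.19, adjusted p = 0.486, edgeR), a value about as large as in fibroblasts.

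The first question is in which cells each chain was found. Levels are CPM of the summed counts of a class, as the mean and SD over the 2 control libraries, for the 13 classes with at least 50 cells in both. They are compared between classes within a gene. The classes were made from the expression of these cells, so the levels are a description and carry no test. The epithelial classes held the highest level of 6 alpha, 4 beta and 4 laminin chains, and the mesenchymal classes that of 11 alpha, 4 beta and 6 laminin chains.

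Transitional epithelial cells, an intermediate between AT2 and AT1 cells, held the highest level of 9 chains. Itgb6, the epithelial partner of Itgav, read 819 ± 51.9 CPM there, 660 ± 27 in AT1-like cells and 4.92 in unknown mesenchymal cells, the lowest class. Itga2, a collagen and laminin receptor chain, read 425 ± 6.5 CPM in transitional cells and 153 ± 34.9 in cycling AT2 cells, the next class. Itgb4, which pairs with Itga6 in hemidesmosomes, read 98.8 ± 7.99 CPM in transitional cells and 39.5 ± 3.6 in AT1-like cells. In each of these 3 genes both control libraries of the highest class lay above both of the next. Itgb3 was ordered in the same way, at 154 ± 9.49 and 91.1 ± 1.53 CPM. Itgb1, the shared beta chain of most matrix receptors, read 703 ± 78.1 CPM in transitional cells and 327 CPM in AT2 cells, its lowest class.

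Other chains did not separate their leading classes. Itga3, a laminin receptor chain, read 258 ± 30.5 CPM in transitional and 248 ± 50.2 in AT1-like cells. Itga6 read 165 ± 18.2 CPM in transitional and 152 ± 10.9 in cycling AT2 cells. Itgav read 477 ± 43.3 CPM in transitional and 477 ± 10.1 in AT1-like cells. Lama5, the alpha chain of mature alveolar basement membrane, read 297 ± 12.2 CPM in transitional and 286 ± 25.7 in AT1-like cells. In all 4 genes the libraries of the 2 classes overlapped.

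AT1-like cells held the highest levels of Lama3 and Lamb3, chains of the laminin that anchors hemidesmosomes. Lama3 read 110 ± 8.3 CPM there and 93.6 ± 3.56 in transitional cells, and Lamb3 read 373 ± 71.6 and 277 ± 49.1. Lamb2 was also highest in AT1-like cells, at 106 ± 19.4 CPM. AT2 cells of cluster 9 held the highest levels of Itga9 (448 ± 71.2 CPM), a receptor chain for tenascin and osteopontin, and of Itga7 (80.4 ± 5.23 CPM), a laminin receptor chain best known from muscle. For both, cycling AT2 cells came next, at 257 ± 21.1 and 51.7 ± 7.86 CPM, and the libraries of the 2 classes did not overlap.

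The smooth muscle class led 5 chains in the controls. Lama2, the laminin alpha chain of muscle and mesenchyme, read 419 ± 53 CPM there, 327 ± 15.3 in unknown mesenchymal cells and 4.54 in AT2 cells. Lama4, an alpha chain known from vessels and mesenchyme, read 219 ± 15.1 CPM in smooth muscle and 200 ± 12 in Myo1f+ fibroblasts, and these classes overlapped. Lama1 (106 ± 14.8 CPM), Itga1 (161 ± 10.8 CPM), a collagen receptor chain, and Lamc1 (194 ± 16.1 CPM), the gamma chain of most laminins, were the other 3. Lamc1 was spread over all classes, down to 60.3 CPM in transitional cells. Lamb1, the common beta chain, was led by EMT-like cells at 412 ± 91 CPM, with overlap with the next class.

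Unknown mesenchymal cells led Itgb5 (595 ± 156 CPM), a partner of Itgav, Itgb8 (132 ± 26.3 CPM) and Itga8 (37.8 ± 2.44 CPM), a partner of Itgb1 that binds nephronectin. Myofibroblast-like cells came next for Itgb5 (564 ± 66 CPM) and Itgb8 (91.8 ± 11 CPM). Unknown mesenchymal cells also read highest for Lamc3, a rare gamma chain, at 7.4 ± 3.47 CPM, from few UMIs and with overlap with the next class. Inflammatory fibroblasts 2 led the fibronectin receptor chain Itga5 (383 ± 74.9 CPM) and the collagen receptor chain Itga11 (8.36 ± 1.04 CPM). For Itga11, inflammatory fibroblasts 1 came next at 5.2 ± 0.522 CPM without overlap.

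**Figure D1:**
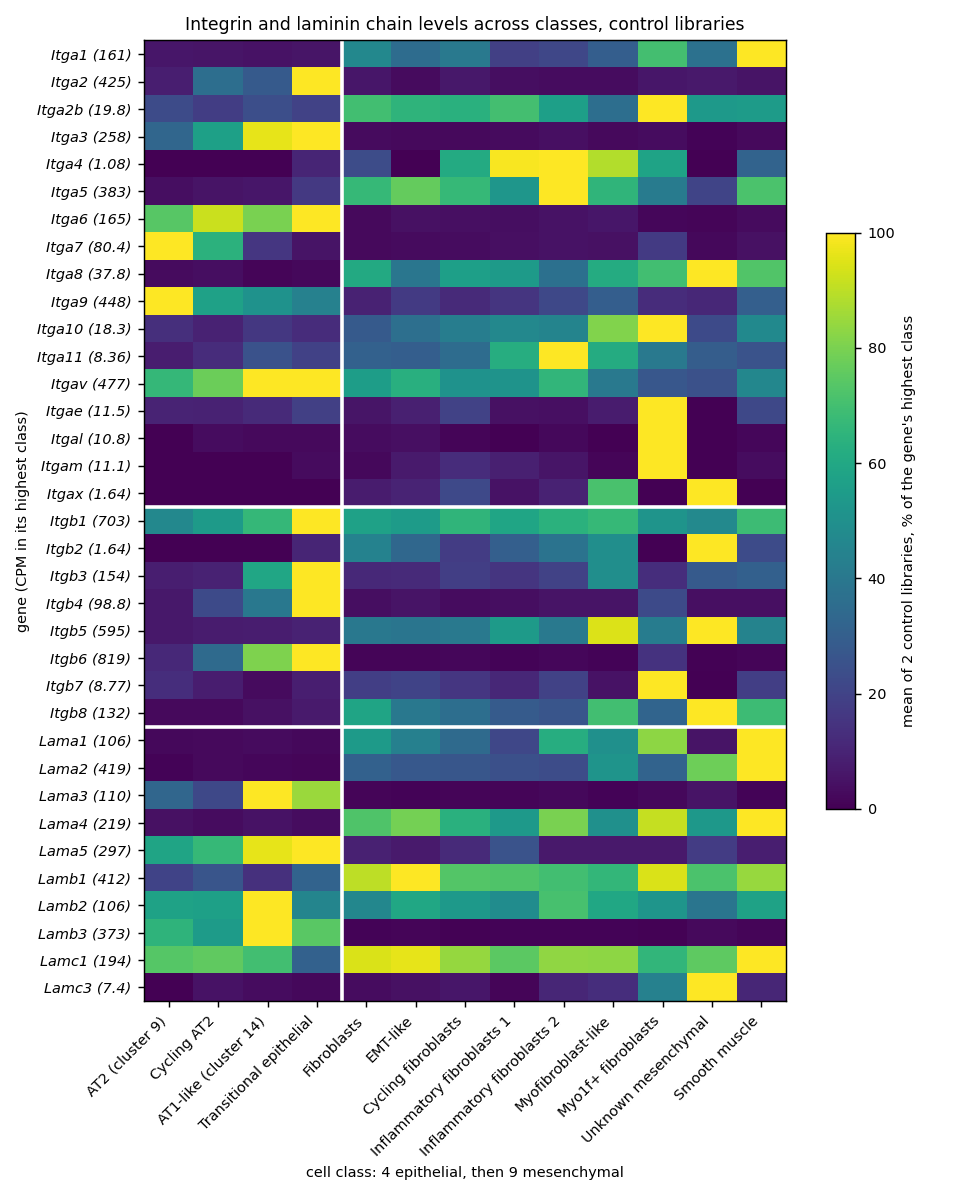
Each cell gives the mean CPM over the 2 control libraries of a class as a percent of the gene's highest class, whose CPM stands beside the gene name. Columns are 4 epithelial and 9 mesenchymal classes; Itga2, Itga3, Itga6, Itgb4, Itgb6, Lama3, Lama5 and Lamb3 are bright on the epithelial side, and Itgae, Itgal, Itgam and Itgb7 in the Myo1f+ column.

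Myo1f+ fibroblasts (189 and 151 cells in the controls, 101 and 82 in the knockdowns) carried some, but not all, integrin chains usually known from blood cells. Itgal, the alpha chain of the leukocyte receptor for ICAMs, read 12.6 and 8.99 CPM in the 2 controls, from 10 and 6 UMIs, and at most 0.46 CPM on average in any other class. Itgam, a chain of myeloid cells, read 8.8 and 13.5 CPM, against 1.4 in the next class. Itgae, a chain of mucosal T cells, read 12.6 and 10.5 CPM, against 2.49 in the next class. Its partner Itgb7 read 10.1 and 7.49 CPM, against 1.77. Itga2b, the platelet chain, read 20.1 and 19.5 CPM, against 13.9 in the next class. In all 5 genes both controls of Myo1f+ fibroblasts lay above both controls of the next class. The leukocyte chains Itgax and Itgb2 went the other way, at 0 CPM in both controls of the class. Itga10 was also highest in this class, at 18.3 ± 2.57 CPM, with overlap with myofibroblast-like cells at 14.8 ± 4.4.

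Itgal, Itgam, Itgae and Itgb7 were also read in the knockdown libraries of Myo1f+ fibroblasts, all from 1 to 7 UMIs a library. They read 5.15 and 1.97 CPM for Itgal, 12 and 9.86 for Itgam, 10.3 and 9.86 for Itgae and 5.15 and 9.86 for Itgb7. Itgb2, the beta chain with which Itgal and Itgam pair on leukocytes, had 0 UMIs in the class in both controls and in knockdown library 2, and 1 UMI in knockdown library 1. The leukocyte gene Ptprc (CD45) had the same counts of 0, 0, 1 and 0 UMIs. Tyrobp and Cd3e had 0 UMIs in all 4 libraries, and Laptm5 had 1, 0, 0 and 0. The macrophage genes Csf1r (17.6, 27, 20.6 and 21.7 CPM) and Cd68 (8.8, 7.49, 5.15 and 9.86 CPM) were read, and summed immune markers were 32.7, 37.4, 29.2 and 37.5 CPM, against 7.58 to 13.5 CPM in the Fibroblasts class. Of 5 endothelial markers, Pecam1, which leukocytes and platelets also carry, read 55.3, 28.5, 56.6 and 43.4 CPM in the class and 1.3 to 2.67 CPM in Fibroblasts. Cdh5, Kdr, Cldn5 and Tie1 had 0 UMIs there in all 4 libraries. The immune marker Cd79a read 5.03, 3, 1.72 and 5.92 CPM in the class, and 1.23, 0.678, 1.04 and 1.34 in Fibroblasts. Summed platelet markers read 2.51, 1.5, 8.58 and 7.89 CPM in the class, close to the 2.34, 1.6, 6.86 and 7.84 of Fibroblasts. Fibroblast markers of the class summed to 6160 to 8470 CPM.

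In controls the same class read higher for Itgb6 and Itgb4 than the other 8 mesenchymal classes with enough cells. Itgb4 read 26.4 and 18 CPM in it and 2.18 to 5.77 in those. Itgb6 read 0 to 18 CPM in those. In Myo1f+ fibroblasts Itgb6 read 132 and 111 CPM in its controls and 70.3 and 69 in its knockdowns. In controls, 17% and 22.2% of its cells had at least 1 UMI of Itgb6 after each cell was thinned to 2000 UMIs, against 1.93% and 1.82% in the Fibroblasts class and 68.9% and 74.9% in transitional cells. The exact 95% binomial intervals of the controls were 11.9 to 23.3% and 15.7 to 29.9% in Myo1f+ fibroblasts, and 1.51 to 2.43% and 1.42 to 2.29% in Fibroblasts; they cover counting error only. Thinning left out 7 cells of each control of the class, and the unthinned shares were 35.4% and 33.1% at median depths of 3691 and 3902 UMIs. The unthinned shares of Fibroblasts were 3.38% and 3.25%. The epithelial gene Epcam read 21.4 and 12 CPM in the controls of Myo1f+ fibroblasts and 24.2 and 19 in those of Fibroblasts. Krt8 read 99.3 and 43.4 CPM in the former and 87.2 and 68.9 in the latter, which overlap. Whether the knockdown moved Itgb6 in the class did not pass the test (log2 -0.78 ± 0.23, adjusted p = 0.0582, edgeR).

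The next question is what the fibroblast knockdown changed. In the fibroblast sums all 35 chains passed the filter on low counts. Of these, 4 fell (Itga2, Itga11, Itgb4 and Lama5), 1 rose (Lamc3) and 30 did not pass an adjusted p of 0.05 over all 17481 genes tested (edgeR). Over all genes the share called was 10.6%, with 4.42% that rose and 6.22% that fell, so the share of the chains was near the background. The median log2 fold change of the 35 was -0.01, against 0.01 over all genes tested. Of the alpha chains 2 of 17 fell, of the beta chains 1 of 8 fell, and of the laminins 1 of 10 fell and 1 rose. With 2 libraries a group, the groups did not overlap in 18 of the 35 chains, most of them not called. The classes given below are parts of the same 4 libraries, so a direction shared by classes is not independent evidence. Itga6, which was not called, was also below 0 in 6 of 6 fibroblast classes tested.

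Itga2 stood at 20 and 18.9 normalised CPM in the control fibroblast sums and at 10.9 and 11.1 in the knockdowns, from 376 UMIs or more in each library. Both knockdown libraries lay well below both controls, and the 2 libraries of each group were close. The log2 fold change was -0.82 ± 0.11 (adjusted p = 0.00515, edgeR). Its adjusted p stayed between 6.26e-06 and 0.0244 in all 15 alternatives tried. Among 8 fibroblast classes tested, the estimate was below 0 in 8, from -1.48 to -0.53, though only the Fibroblasts class was called.

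Itga11 stood at 3.55 and 4.11 CPM in controls and at 1.12 and 1.45 in knockdowns, from 44 to 225 UMIs a library. Both knockdowns were below both controls (log2 -1.58 ± 0.21, adjusted p = 0.0046, edgeR). The estimate was below 0 in all 6 fibroblast classes tested, from -1.89 to -0.64. Inflammatory fibroblasts 2, the class with its highest level, fell from 1036 and 1049 cells to 175 and 112. Equal class weight was given to classes with at least 50 cells in every library, which leaves out smooth muscle, Tgfbi+ and Wnt4+ fibroblasts. With it the value was -0.94 (adjusted p = 0.0191, limma). That fit adds 1 CPM before the log, which draws the fold changes of low chains such as Itga11, Itgb4 and Lamc3 towards 0. Among cells with at most 20% mitochondrial UMIs the value was -1.14 and not called (adjusted p = 0.0922, edgeR).

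Itgb4 stood at 4.86 and 4.15 CPM in controls and at 2.14 and 2.64 in knockdowns (log2 -0.92 ± 0.18, adjusted p = 0.0205, edgeR). Groups did not overlap, and the estimate was below 0 in 7 of 7 fibroblast classes tested. Itgb4 was not called without knockdown library 1 (-0.78, adjusted p = 0.0722), in thinned cells (-0.66, adjusted p = 0.103), with equal class weight (-0.50, adjusted p = 0.258) and among cells with at most 20% mitochondrial UMIs (-0.99, adjusted p = 0.0567).

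Lama5 stood at 28 and 32.2 CPM in controls and at 22.6 and 21.3 in knockdowns (log2 -0.46 ± 0.12, adjusted p = 0.0462, edgeR). The groups did not overlap, but the call sat near the threshold. It was lost without knockdown library 1 (adjusted p = 0.116), knockdown library 2 (adjusted p = 0.235) or control library 2 (-0.35, adjusted p = 0.119), and held in 6 of 15 alternatives. With equal class weight it was -0.27 (adjusted p = 0.317, limma), and among cells with at most 20% mitochondrial UMIs -0.31 (adjusted p = 0.397, edgeR).

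Lamc3 was the chain that rose, from 0.591 and 0.457 CPM to 1.45 and 1.01, on 33, 25, 57 and 34 UMIs (log2 1.23 ± 0.30, adjusted p = 0.041, edgeR). Unknown mesenchymal cells, which had the highest CPM of Lamc3, went from 85 and 106 cells to 436 and 365. Within them Lamc3 read 4.78 and 9.91 CPM in controls and 9.2 and 8.44 in knockdowns. The control levels rest on very few UMIs. Lamc3 did not pass the filter on low counts in any class, so a change within this class was not tested. With equal class weight the difference was 0.00 (adjusted p = 0.995, limma), and the call was also lost without knockdown library 1 (0.93, adjusted p = 0.198) and by DESeq2 (adjusted p = 0.0643). In a sum over classes, more cells of a class and more RNA per cell cannot be told apart.

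**Figure D2:**
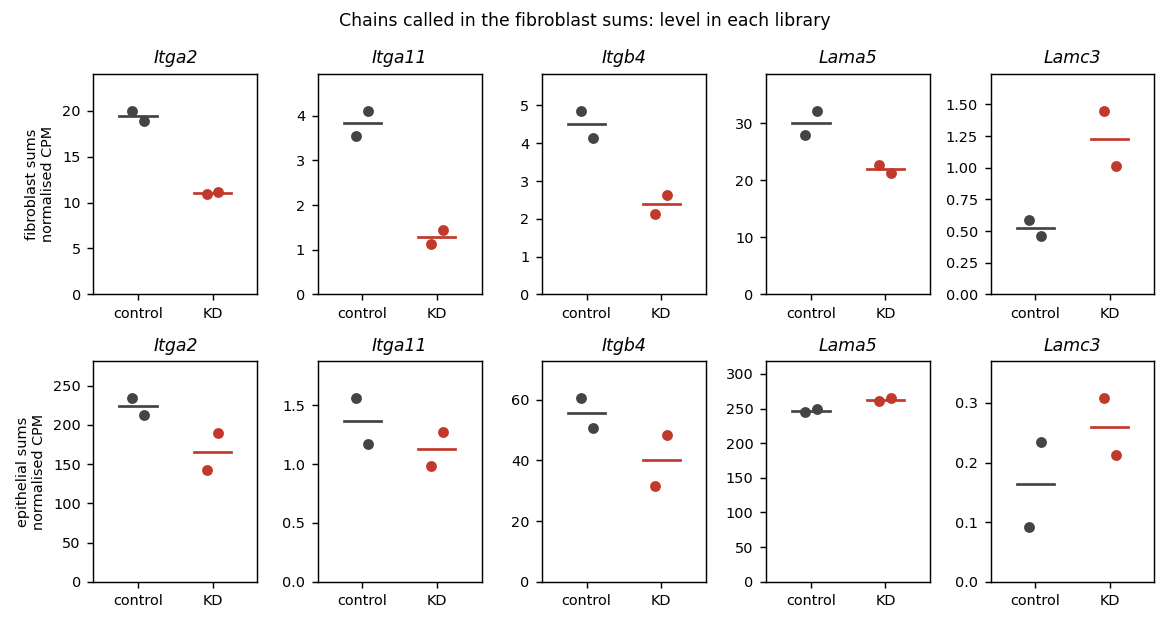
Points give the normalised CPM of each library and lines the mean of the 2 libraries of a group, for the 5 chains called in the fibroblast sums (top row) and the same chains in the epithelial sums (bottom row); each panel has its own axis from 0. In the top row the groups do not overlap, which holds for 18 of all 35 chains in the fibroblast sums.

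Free RNA from epithelial cells can add UMIs to fibroblasts, and 3 of the chains that fell are higher in epithelium. As a percent of the epithelial level of the same library, fibroblast Itga2 stood at 8.54, 8.85, 7.61 and 5.89% in control 1, control 2, knockdown 1 and knockdown 2. Itgb4 stood at 8.02, 8.18, 6.74 and 5.44%, and Lama5 at 11.4, 12.9, 8.66 and 8.04%. In the same order AT2 markers stood at 3.32, 2.26, 4.83 and 3.48%, pan-epithelial markers at 6.06, 3.76, 5.42 and 3.71%, and transitional markers at 7.68, 5.32, 7.27 and 4.70%. Basal cell markers in the fibroblast sums went from 18.1 and 15.5 CPM to 0.993 and 1.13, and 4 of 4 fell. Ciliated markers went from 13.9 and 6.83 CPM to 4.28 and 5.3, and 3 of 5 fell, while summed airway secretory markers read 1330, 301, 27.8 and 287 CPM. The part of these markers in the falls of Itga2, Itgb4 and Lama5 was not tested. Other chains with high epithelial levels were at 2.64, 2.18, 3.49 and 2.29% (Itgb6) and 1.86, 1.14, 2.06 and 1.58% (Lamb3) in fibroblasts.

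Promoter sequence was looked up for the chains that were called, to show what lies before their starts. RefSeq windows on GRCm38.p6 were found for 23 of the 35 chains, in 26 windows, among them Itga2, Itga11 and Lama5. The 250 bases before the RefSeq start are printed 5′ to 3′ on the gene's strand. They are chr13:114932101-114932350, minus strand, for Itga2, chr9:62677605-62677854, plus strand, for Itga11, and chr2:180225860-180226109, minus strand, for Lama5. Capitals mark GC boxes (GGGCGG or its reverse complement CCGCCC):
Itga2: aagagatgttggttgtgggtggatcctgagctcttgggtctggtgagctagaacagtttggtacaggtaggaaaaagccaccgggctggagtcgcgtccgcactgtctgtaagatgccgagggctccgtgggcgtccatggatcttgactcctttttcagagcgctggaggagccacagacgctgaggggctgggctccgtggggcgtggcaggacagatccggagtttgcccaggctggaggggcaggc
Itga11: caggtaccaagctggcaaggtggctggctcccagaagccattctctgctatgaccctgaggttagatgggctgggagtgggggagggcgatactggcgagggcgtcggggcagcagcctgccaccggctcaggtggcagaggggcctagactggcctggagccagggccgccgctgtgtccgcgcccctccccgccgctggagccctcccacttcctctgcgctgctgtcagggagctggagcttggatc
Lama5: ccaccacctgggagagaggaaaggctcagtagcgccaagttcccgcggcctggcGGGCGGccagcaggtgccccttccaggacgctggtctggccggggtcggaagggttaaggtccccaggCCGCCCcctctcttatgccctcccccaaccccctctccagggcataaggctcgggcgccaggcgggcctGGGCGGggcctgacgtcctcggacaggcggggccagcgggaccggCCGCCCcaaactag
The Lama5 window held 4 GC boxes, and those of Itga2 and Itga11 held 0. Among all 32851 promoter windows of this length, 32.7% held a GC box, as did 9 of the 26 of these chains. The core letters of the motif of TEAD factors, the DNA-binding partners of YAP and TAZ, are GGAATG, which reads CATTCC on the other strand. They were found in 12.6% of all windows and in 3 of the 26, those of Itga10, Itgb1 and Lamb3, and in 0 of the 3 windows printed. A match is only a match of letters, and its absence says only that these letters are not in this window.

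In GENCODE vM21 the gene of Itga2 lies at chr13:114833081-114932100 (minus strand) and that of Itga11 at chr9:62677826-62783982 (plus strand), and neither overlaps another annotated gene. Lama5 lies at chr2:180176373-180225859 (minus strand) and contains the microRNA gene Mir7005. Itgb4 lies at chr11:115974709-116008412 (plus strand) and overlaps B230344G16Rik on the other strand. Lamc3 lies at chr2:31887291-31946539 (plus strand) and overlaps 1 gene on the other strand. The sources used here do not give whether strand was used in counting, and reads of overlapping genes may not be told apart.

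The abundant matrix receptor chains of the fibroblasts did not pass the test. Itgb1 read 363 and 477 CPM in controls and 417 and 465 in knockdowns (log2 0.07 ± 0.17). Itgav read 252 and 256 CPM in controls and 235 and 222 in knockdowns (log2 -0.15 ± 0.12). Itga5 read 302 and 231 CPM in controls and 263 and 233 in knockdowns (log2 -0.10 ± 0.16). In Itgb1 and Itga5 the groups overlapped, and in Itgav the knockdowns lay just below the controls. Itgb8 read 58.4, 65.5, 71.8 and 68.2 CPM in control 1, control 2, knockdown 1 and knockdown 2 (log2 0.18 ± 0.11), and Itga8 read 17.8, 22.6, 19.2 and 17 CPM (log2 -0.16 ± 0.14). Itgb5 read 257, 319, 325 and 379 CPM (log2 0.29 ± 0.16, adjusted p = 0.274, edgeR).

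The laminins of the fibroblasts also showed small differences that did not pass. In the same order of libraries, Lama2 read 144, 146, 170 and 124 CPM (log2 0.02 ± 0.16). Lama4 read 142, 161, 153 and 140 CPM (log2 -0.05 ± 0.13). Lamb1 read 283, 383, 418 and 383 CPM (log2 0.27 ± 0.17). In these 3 the groups overlapped. Lamc1 read 165, 174, 204 and 185 CPM, higher in both knockdowns (log2 0.20 ± 0.12, adjusted p = 0.327, edgeR). The epithelial chains Itgb6 (13.5, 11.6, 12.4 and 9.83 CPM), Itga6 (6.94, 5.59, 4.69 and 4.41 CPM), Itga3 (7.38, 6.88, 6.16 and 5.09 CPM) and Lama3 (1.79, 1.24, 1.1 and 1.36 CPM) were low in fibroblasts, with adjusted p from 0.109 to 0.491 (edgeR).

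Leukocyte chains were near the limit of detection. Itgb2 read 0.52 and 0.657 CPM in control fibroblasts and 1.5 and 1.01 in knockdowns, from 29 to 59 UMIs, and did not pass (log2 1.10 ± 0.30, adjusted p = 0.0572, edgeR). Itgax read 0.179, 0.402, 0.637 and 0.651 CPM (log2 1.14 ± 0.42, adjusted p = 0.12, edgeR). Beside them the summed immune markers read 9.91, 7.83, 13.1 and 11.6 CPM, of which 2 of 6 tested rose and Cd3e was at 0, and the summed platelet markers read 2.1, 1.9, 7.95 and 8.97 CPM. The part of other cells in these values was not tested.

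The epithelium grew beside the knockdown fibroblasts and was labelled wildtype. In the epithelial sums 28 of 35 chains passed the filter, and 0 were called (edgeR), with 3 at an unadjusted p under 0.05. DESeq2 and limma voom also called 0. The share called over all 13952 genes was 1.44%, so a count of 0 is near the background. The 7 not tested were Itga4, Itgal, Itgam, Itgax, Itgb2, Itgb7 and Lamc3, and Itgax had 0 UMIs in all 4 libraries. The median log2 fold change of the 28 was -0.17, against 0.02 over all genes, with 19 below 0 and 9 above. Fold changes in epithelium fell with gene span across all genes (Spearman -0.406), and with a correction for length the median was -0.03, with 16 below 0 and 12 above. That correction moved Itga2 from -0.43 to -0.27, Itgb6 from -0.41 to -0.22, Itgb5 from -0.30 to -0.12 and Itga6 from -0.19 to -0.02. Itgb3 went only from -0.45 to -0.37, and Itgb4 from -0.48 to -0.50. Without the correction the smallest adjusted p was 0.33 (edgeR), for Itgb3.

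The 3 epithelial chains with an unadjusted p under 0.05 were Itgb3, Itgb4 and Itga2. Itgb3 read 85.3 and 82.8 CPM in controls and 54.3 and 69.1 in knockdowns (log2 -0.45 ± 0.17). Itgb4 read 60.5 and 50.7 CPM in controls and 31.7 and 48.4 in knockdowns (log2 -0.48 ± 0.20, adjusted p = 0.37, edgeR). Itga2 read 234 and 213 CPM in controls and 143 and 189 in knockdowns (log2 -0.43 ± 0.19, adjusted p = 0.407, edgeR). In each of the 3 both knockdowns were lower, knockdown library 1 more so. The groups did not overlap in 13 of the 28 chains tested in epithelium. Transitional cells, in which all 3 chains were highest, made up 46.2 and 37.8% of the epithelial cells in controls and 29.6 and 46.5% in knockdowns 1 and 2. With equal class weight the values were -0.25 for Itgb3, -0.32 for Itgb4 and -0.31 for Itga2. In cluster 9 alone they were -0.60 for Itgb3, -0.41 for Itgb4 and -0.10 for Itga2, none called. Basal markers in epithelium went from 32.7 and 25.6 CPM to 0.862 and 1.59, and 4 of 4 fell; their part in these values was not tested. Without knockdown library 2, Itgb4 was called (-0.83, adjusted p = 0.00689, edgeR). Itgb6 read 510, 529, 355 and 429 CPM (log2 -0.41 ± 0.20, adjusted p = 0.473, edgeR).

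Other epithelial chains lay closer to their controls. In the order control 1, control 2, knockdown 1 and knockdown 2, Itgb1 read 473, 549, 452 and 506 CPM. Itgav read 418, 413, 360 and 385 CPM. Itga6 read 146, 159, 129 and 139 CPM. These gave log2 fold changes of -0.09, -0.16 and -0.19, none called. Itga3 read 173, 212, 185 and 235 CPM (log2 0.13 ± 0.19), with overlap of the groups. The laminin chains Lama3 (72.6, 69.1, 58.3 and 59.9 CPM), Lama5 (245, 249, 261 and 265 CPM), Lamb1 (95.3, 105, 116 and 106 CPM) and Lamc1 (96.1, 120, 141 and 104 CPM) had log2 fold changes of -0.26, 0.09, 0.16 and 0.19.

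Some mesenchymal chains were low in epithelium, where RNA of fibroblasts was also read. Summed fibroblast markers in the epithelial sums stood at 13.1, 8.64, 9.19 and 6.46% of their fibroblast level. Lama2 stood at 5.44, 3.94, 4.35 and 2.31%, Itga8 at 5.68, 3.63, 7.08 and 4.99%, and Itga5 at 13.9, 14.2, 11.3 and 12.8%. The epithelial levels of Lama2 (7.82, 5.75, 7.39 and 2.87 CPM), Lama4 (8.28, 9.15, 7.58 and 4.35 CPM), Itga8 (1.01, 0.821, 1.36 and 0.85 CPM), Itgb8 (7.18, 5.39, 5.73 and 4.57 CPM) and Itga5 (42.1, 32.8, 29.6 and 29.8 CPM) are given without reading expression from them. Itga5 stood above the fibroblast markers in every library, and the part of fibroblast RNA in it was not tested. Lamb1, at 27.3 to 33.7%, and Lamc1, at 56.4 to 69.0%, stood further above them.

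**Figure D3:**
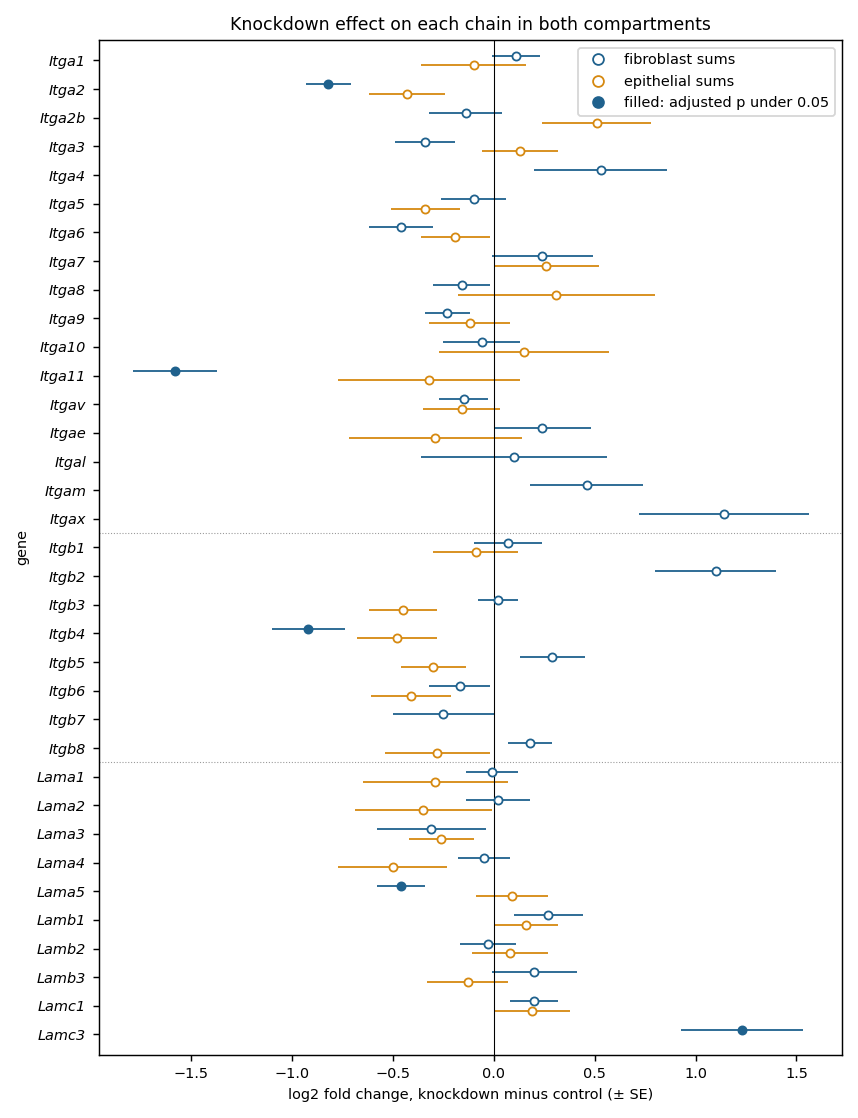
Points give the log2 fold change, knockdown minus control, and bars the SE, for each chain in the fibroblast (blue) and epithelial (orange) sums; filled points have an adjusted p under 0.05. The 5 filled points are all fibroblast. Lama5 lies on opposite sides of 0 in the 2 compartments, as do other chains such as Itgb5 and Itga2b, and its epithelial bar reaches across 0.

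The difference between the compartments was tested itself, with the library as a block. Over 17188 genes 3.55% differed. Of the 35 chains 1 differed, Lama5, with 9 at an unadjusted p under 0.05. Its effect in fibroblasts minus that in epithelium was -0.58 ± 0.12 on the log2 scale (adjusted p = 0.0212, edgeR). The call was kept without knockdown library 2 (adjusted p = 0.0281) and lost without knockdown library 1 (adjusted p = 0.102), control library 1 (adjusted p = 0.0768) or control library 2 (adjusted p = 0.176). Itgb5 had a difference of 0.56 ± 0.15 (adjusted p = 0.0661, edgeR), Itgb3 of 0.44 ± 0.14 (adjusted p = 0.131, edgeR) and Itga2 of -0.41 ± 0.14 (adjusted p = 0.167, edgeR). With no filter on low counts Itga2 (-0.44, adjusted p = 0.0179), Itgb3 (0.41, adjusted p = 0.0242) and Itgb5 (0.53, adjusted p = 0.00191) were called. Itgb3 was also called without knockdown library 2 (0.64, adjusted p = 0.00204) and Itgb5 without control library 2 (0.77, adjusted p = 0.0217). The differences of Itga11 (-1.30, adjusted p = 0.157) and Itgb4 (-0.46, adjusted p = 0.217) did not pass in the test as designed or in its 6 alternatives.

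The last question is in which classes the chains changed. In 12 classes with at least 50 cells in every library, 291 of 420 pairs of a chain and a class passed the filter, and 10 were called, 9 falls and 1 rise (edgeR, adjusted within each class). In the Fibroblasts class 8.23% of all genes were called and 3 of 30 chains fell. In myofibroblast-like cells 7.33% were called, and 3 of 28 chains fell and 1 rose. In EMT-like cells 6.24% were called and 1 of 28 chains fell. In inflammatory fibroblasts 1 the share was 2.53% and 1 of 26 chains fell. In cycling AT2 cells it was 1.34% and 1 of 21 chains fell.

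The other 7 classes gave 0 chains called by edgeR. Their shares over all genes were 2.31% in cycling fibroblasts, 2.56% in inflammatory fibroblasts 2, 2.48% in Myo1f+ fibroblasts, 1.31% in unknown mesenchymal cells, 0.922% in AT2 cells of cluster 9, 0.51% in AT1-like cells and 0.304% in transitional cells. Smooth muscle (724, 753, 48 and 5 cells), Tgfbi+ fibroblasts (5, 38, 931 and 404) and Wnt4+ fibroblasts (7, 32, 1362 and 971) had too few cells in a library to be tested.

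**Figure D4:**
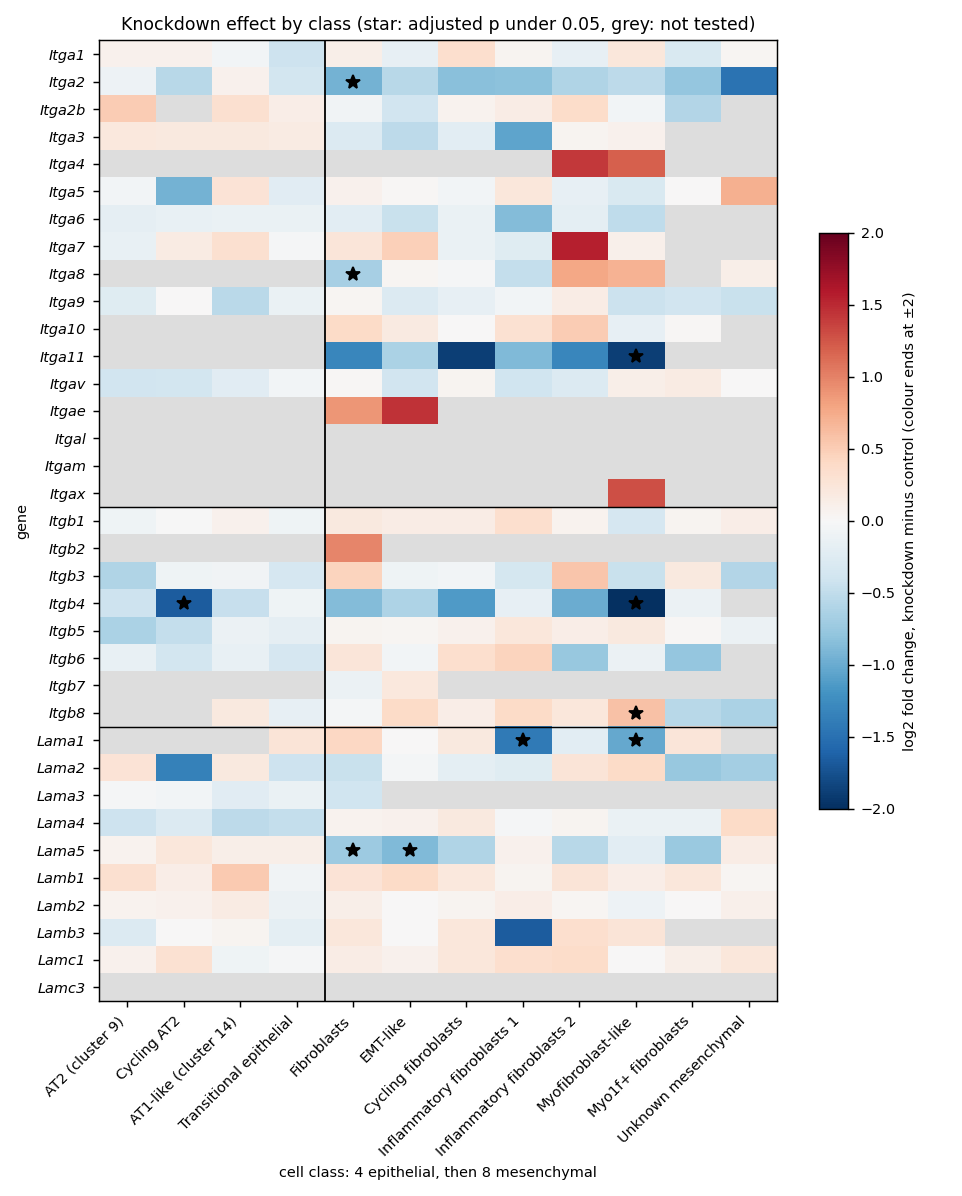
Colour gives the log2 fold change, knockdown minus control, of each chain (rows) in each of 12 classes (columns), with the scale ending at ±2; a star marks an adjusted p under 0.05 and grey a pair that was not tested. The 10 stars lie in 5 classes, 4 of them in myofibroblast-like cells, and the Itga2 row is blue across the 8 mesenchymal columns.

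In the Fibroblasts class, Itga2 read 25.7 and 24.7 normalised CPM in controls and 10.8 and 15.3 in knockdowns (log2 -0.95 ± 0.17, adjusted p = 0.00675, edgeR). Lama5 read 23.5 and 29.6 CPM in controls and 14.3 and 17.8 in knockdowns (log2 -0.73 ± 0.17, adjusted p = 0.0211, edgeR). Itga8 read 20.9 and 24.2 CPM in controls and 16.4 and 11.9 in knockdowns (log2 -0.67 ± 0.17, adjusted p = 0.0353, edgeR), and was not called without knockdown library 2 (adjusted p = 0.219). In all 3 the groups did not overlap. With no filter on low counts none of these 3 was called (adjusted p from 0.0718 to 0.138). Different clusters led this class in the 2 groups: cluster 0 held 2412 and 2035 of its 4202 and 4246 control cells but 66 and 23 knockdown cells, and cluster 5 held 7 and 76 control cells but 1393 and 1149 of its 2272 and 1616 knockdown cells.

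Lama5 was also lower in EMT-like cells, at 23 and 19.5 CPM in controls and 11.8 and 11.1 in knockdowns (log2 -0.89 ± 0.18, adjusted p = 0.00863, edgeR). This call held in 7 of 7 alternatives, with adjusted p up to 0.04. Inflammatory fibroblasts 1, with the most Lama5 of the tested fibroblast classes, read 70.7 and 78.6 CPM in controls and 97.2 and 63.6 in knockdowns (log2 0.09 ± 0.20). In the 4 epithelial classes tested the estimates ran from 0.07 to 0.23, none called.

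Myofibroblast-like cells held 4 of the 10 calls. Lama1, an alpha chain best known from embryonic basement membrane, read 57.4 and 46.9 CPM in controls and 32.5 and 18.7 in knockdowns (log2 -1.02 ± 0.21, adjusted p = 0.00558, edgeR). Without knockdown library 2 it was -0.66 and not called (adjusted p = 0.0881). Itgb8 rose there, from 81.9 and 98.5 CPM to 147 and 124 (log2 0.59 ± 0.16, adjusted p = 0.0307, edgeR), and was not called without knockdown library 1 (adjusted p = 0.204) or control library 1 (adjusted p = 0.213). Itgb4 (5.62, 4.9, 0.995 and 1.36 CPM) and Itga11 (4.18, 5.91, 1.33 and 1.36 CPM) fell, with 3 or 4 UMIs of Itgb4 and 4 of Itga11 in each knockdown library.

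In this class Itgb4 was no longer called without knockdown library 1 (adjusted p = 0.0519) or control library 1 (adjusted p = 0.0788). That of Itga11 was kept without control library 1 (adjusted p = 0.0272) and lost without any other library (adjusted p from 0.0675 to 0.15). None of the 4 was called with no filter on low counts (adjusted p from 0.207 to 0.322). Of the 2 clusters of the class, cluster 15 went from 703 and 594 cells to 99 and 39 and cluster 4 from 858 and 918 to 519 and 439. Smooth muscle markers in the class summed to 436, 582, 203 and 242 CPM, and their part in these values was not tested.

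Lama1 also fell in inflammatory fibroblasts 1, from 21.7 and 22.6 CPM to 11.2 and 5.98 (log2 -1.41 ± 0.30, adjusted p = 0.00998, edgeR), with a value of -0.97 when knockdown library 2 was left out (adjusted p = 0.29). In the Fibroblasts class it read 60.8 and 52.7 CPM in controls and 78 and 73 in knockdowns (log2 0.41 ± 0.13, adjusted p = 0.0708, edgeR). Over the whole fibroblast sums Lama1 read 56, 48, 56.3 and 46.9 CPM (log2 -0.01 ± 0.13). Itga8 showed a similar split, with 17.5 and 28.3 CPM in control and 39.5 and 34.4 in knockdown myofibroblast-like cells (log2 0.69 ± 0.21, adjusted p = 0.0541, edgeR). The differences between these classes were not tested.

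**Figure D5:**
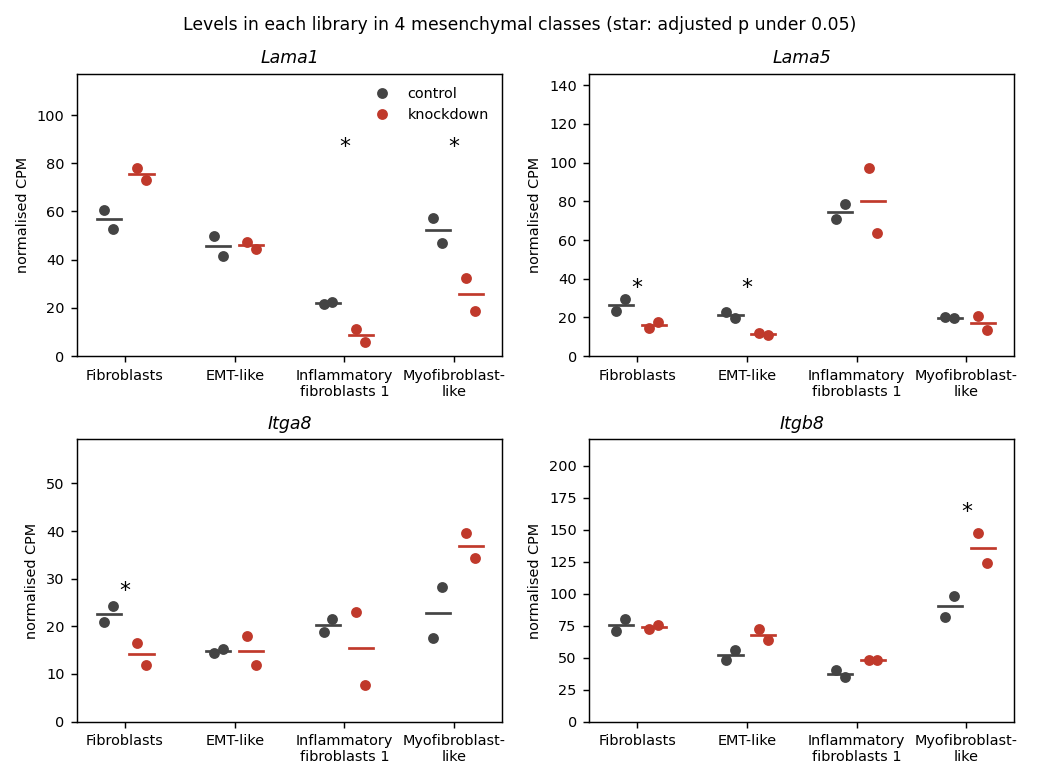
Points give the normalised CPM of each library and lines the group mean of Lama1, Lama5, Itga8 and Itgb8 in 4 mesenchymal classes, on axes from 0; a star marks an adjusted p under 0.05. Lama1 is higher in the knockdowns in Fibroblasts (73 and 78 CPM) and lower in myofibroblast-like cells (18.7 and 32.5 CPM).

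The epithelial call was Itgb4 in cycling AT2 cells, at 17.5 and 27 CPM in controls and 5.79 and 9.15 in knockdowns, from 14 to 36 UMIs a library (log2 -1.67 ± 0.36, adjusted p = 0.00461, edgeR). Leaving out knockdown library 1 ended the call (adjusted p = 0.0682), as did leaving out control library 2 (-1.32, adjusted p = 0.364). Basal markers in the class summed to 32.8 and 33.5 CPM in controls and 0.242 and 1.97 in knockdowns, and their part in the fall was not tested. In transitional cells, where Itgb4 was most abundant, it read 105, 93.1, 89 and 97.3 CPM (log2 -0.09 ± 0.16).

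Classes that were mostly knockdown cells are given as levels alone. Tgfbi+ fibroblasts of the knockdown libraries read 353 and 266 CPM of Lama2, 109 and 125 of Itga1, 74.5 and 64.5 of Lama1 and 293 and 323 of Itga5. Wnt4+ fibroblasts of the same libraries read 136 and 142 CPM of Lama2, 36.3 and 41 of Itga1, 30.8 and 25.4 of Lama1 and 173 and 118 of Itga5. For all 4 genes Tgfbi+ cells lay above Wnt4+ cells in both libraries. Itgb5 was ordered the other way, at 545 and 700 CPM in Wnt4+ and 291 and 405 in Tgfbi+ fibroblasts.

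The 48 partner genes of these chains are 26 adhesion adaptors, 12 other basement membrane genes and 10 integrin ligands. In the fibroblast sums all were tested, 4 rose, 3 fell and 41 did not pass, beside 10.6% of all genes, and their median log2 fold change was -0.01. Of the adaptors 2 rose and 2 fell. Cd151, a tetraspanin that binds laminin receptors, went from 67 and 93.6 CPM to 129 and 154 (log2 0.82 ± 0.18, adjusted p = 0.0263, edgeR), not passing without knockdown library 2 (adjusted p = 0.0886). The kinase Src went from 15.2 and 15.2 CPM to 22.2 and 22.2 (log2 0.54 ± 0.11, adjusted p = 0.0187, edgeR), and the related kinase Fyn from 54.3 and 51.1 to 39.3 and 36.8 (log2 -0.47 ± 0.10, adjusted p = 0.0294, edgeR). Src was not called without knockdown library 1 (adjusted p = 0.0732) or 2 (adjusted p = 0.0808), with equal class weight (0.37, adjusted p = 0.188) or at the limit of 20% mitochondrial UMIs (adjusted p = 0.0679). Fyn was not called without knockdown library 1 (adjusted p = 0.0918), knockdown library 2 (adjusted p = 0.203) or control library 1 (adjusted p = 0.051), nor with a length correction (-0.24, adjusted p = 0.11), equal class weight (adjusted p = 0.093) or the limit of 20% mitochondrial UMIs (adjusted p = 0.0601).

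Fermt1, the epithelial kindlin, read 1.72 and 1.7 CPM in control and 0.637 and 0.622 in knockdown fibroblasts (log2 -1.44 ± 0.23, adjusted p = 0.0104, edgeR; -0.63 and adjusted p = 0.456 among cells with at most 20% mitochondrial UMIs), or 0.853 to 2.03% of its level in epithelium. Among basement membrane genes 2 of 12 rose and 0 fell. Col18a1, whose product yields endostatin, went from 102 and 132 CPM to 247 and 254 (log2 1.10 ± 0.15, adjusted p = 0.00542, edgeR). Bcam, a receptor for Lama5-containing laminins, went from 20.6 and 23 to 39.5 and 37.4 CPM (log2 0.82 ± 0.11, adjusted p = 0.00514, edgeR). Both were called in 15 of 15 alternatives, though Col18a1 was at 0.58 with equal class weight and at 0.65 among cells with at most 20% mitochondrial UMIs. Of the ligands, Fbln5, which binds integrins and elastic fibres, fell from 14.4 and 18.7 to 6.98 and 7.4 CPM (log2 -1.21 ± 0.15, adjusted p = 0.00434, edgeR). With equal class weight Fbln5 was at -0.63 and not called (adjusted p = 0.0527, limma).

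In the epithelial sums 46 of the 48 partner genes were tested and 0 were called by edgeR and by limma voom, with 5 at an unadjusted p under 0.05 and 1 called by DESeq2, beside 1.44% of all genes. Their median log2 fold change was -0.05. The smallest adjusted p was 0.0653, for the ligand Tnc (log2 -0.69 ± 0.17).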

How the data were processed

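The authors deposited a single-cell RNA matrix of whole-number UMI counts per gene and cell, not normalised, with cell classes, per the file headers and the values. They also deposited a mitochondrial percent per cell and an ATAC doublet enrichment ratio, used only to describe or select cells; 52 other deposited per-cell columns were left aside. Per the submitters' processing notes reads belong to build GRCm38 (mm10). The sources used here do not say how reads were aligned and counted, introns included. Levels were therefore not compared between genes. Deposited cells had at most 35% mitochondrial UMIs and at least 533 UMIs. No doublet caller was run. Libraries were made with a 10x kit for RNA and open chromatin, and share 1 batch, per the labels.

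Sums per library and class were tested with edgeR 4.0.16 (R 4.3.3): TMM, default low-count filter, quasi-likelihood test, Benjamini-Hochberg adjustment over all genes, called at 0.05. Log2 fold changes are knockdown minus control, ± SE. Alternatives used DESeq2 1.42.0, limma 3.58.1 (log2 of CPM + 1 for equal class weight), cells thinned to 2000 UMIs and others given below. Equal class weight took only classes with at least 50 cells in every library. Smooth muscle, Tgfbi+ and Wnt4+ fibroblasts and cluster 32 were thus left out of it. The tests were checked on simulated data. All 35 chains are named; values in every library are given for chains called and for 15 fixed chains, partner genes when called, and Yap1 and Wwtr1. Class calls, other chains with per-library values, and the blood-cell chains of Myo1f+ cells were chosen after their values were seen. Members and lists were chosen with earlier results of these data known. Replicate numbers were not used as pairs.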

Additional observations from a re-analysis of the deposited data

Results flagged for a closer look

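The knockdown effect on Lama5 differed between fibroblasts and epithelium in the test of the difference, at -0.58 on the log2 scale. By class, Lama5 was higher in both knockdown than in both control libraries in cycling AT2 cells (0.23) and transitional cells (0.12) and lower in EMT-like cells (-0.89) and Fibroblasts (-0.73). Itga8 was higher in all knockdown libraries in inflammatory fibroblasts 2 (0.78) and myofibroblast-like cells (0.69) and lower in Fibroblasts (-0.67). Lama1 was higher in Fibroblasts (0.41) and lower in inflammatory fibroblasts 1 (-1.41) and myofibroblast-like cells (-1.02). Itgb8 was lower in Myo1f+ fibroblasts (-0.55) and unknown mesenchymal cells (-0.63) and higher in myofibroblast-like cells (0.59). The differences between classes were not tested, and in each gene the estimates on the first side were not called.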

How the results depend on the processing

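Of 35 chains, 5 were called in fibroblasts, against 2 with equal class weight, 2 in thinned cells and 1 among cells with at most 20% mitochondrial UMIs. Over all genes the same settings called 1860 of 17481, 828 of 17481, 1811 of 15361 and 1291 of 14892. Leaving out 1 library at a time gave 2 to 7 chains in fibroblasts, 0 to 2 in epithelium, 0 to 2 for the difference between them and 9 to 15 of the calls by class. With no filter on low counts the numbers were 1 in epithelium, 5 for the difference and 5 by class. Without that filter 528 of 22533 genes were called in epithelium, against 201 of 13952 with it. For the difference it was 1303 of 26114 genes, against 610 of 17188. Calls over all genes also moved when 1 library was left out, so these counts are not read as a property of the chains. Partner genes gave 5 to 12 calls in fibroblasts and 0 to 3 in epithelium when 1 library was left out. In epithelium they gave 4 with no filter, 1 by DESeq2, 1 with a length correction and 1 with equal class weight. The cause was not tested.

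With the replicate number as a block, 10 chains were called in fibroblasts, 11 with the length correction added, and 35 pairs by class; partner genes gave 21 and 13 in fibroblasts and 1 in epithelium. Over all genes the block raised the calls from 1860 to 5820 in fibroblasts and from 201 to 329 in epithelium. Deviations of same-numbered libraries from their group means correlated at 0.11 in fibroblasts and 0.08 in epithelium. With 2 libraries a group both pairs give the same value by construction, so it cannot decide whether the numbers pair the libraries. The labels do not say so either, and the numbers were not used as pairs.

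Some uncalled chains changed sign. In fibroblasts, Itgb1 was -0.11, Lama2 -0.01 and Lama3 0.05 at the mitochondrial limit, Lama2 -0.27 and Lama4 0.02 with equal class weight, and Itga8 0.06 and Lama4 0.13 with the length correction, or 0.08 and 0.14 with the block as well. In epithelium, Lama3 was 0.02 with the length correction, with or without the block, and Lama2 was 0.28 in cluster 9 alone and 0.00 in thinned cells. Leaving out 1 library gave -0.28 to 0.10 for Itga5, -0.32 to 0.02 for Itga8, -0.11 to 0.28 for Itgb1, -0.23 to 0.23 for Lama2 and -0.13 to 0.05 for Lama4 in fibroblasts. In epithelium it gave -0.07 to 0.29 for Itga3, -0.20 to 0.01 for Itgb1, -1.25 to 0.10 for Lama2 and -0.05 to 0.37 for Lamc1. All alternatives for single chains, with those for Yap1 and Wwtr1 in fibroblasts, were also counted. Of these values 570 kept direction and call, 43 lost the call, 14 gained it and 25 changed sign. Across genes, fold change and gene span had a Spearman correlation of -0.231 in fibroblasts and -0.406 in epithelium. Chains with under about 100 UMIs a library, such as Lamc3, Itgb2 and the blood-cell chains, are limited by depth.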

Other observations

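AT2-class cluster 32 was too small to test (82, 25, 21 and 42 cells in control 1, control 2, knockdown 1 and knockdown 2). In the same order, Itgb4 read 120, 195, 12.4 and 8.23 CPM there, Itga2 236, 224, 33.2 and 55.5, and Itgb6 468, 466, 16.6 and 32.9. Itga6 read 345, 371, 112 and 144 CPM, and Lama3 54.1, 80.9, 0 and 0. All 5 chains were lower in both knockdown libraries than in both controls, but they were picked after their values were seen. Their shared direction is therefore no count over the chains, and the others were not counted here. With 21 and 42 knockdown cells, the lowest of these values rest on very few UMIs. Summed basal cell markers of the cluster read 252, 376, 0 and 12.3 CPM, transitional markers 4070, 5090, 1830 and 2260, and mesothelial markers 215, 485, 4.14 and 12.3. The part of these markers in the values was not tested.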
